A study of Mus musculus with 13 samples.

Results

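Integrins are receptors made of 1 alpha and 1 beta subunit that hold cells to the matrix, and in epidermis they tie basal keratinocytes to the basement membrane. The pair alpha6 beta4 (Itga6, Itgb4) and the transmembrane collagen XVII (Col17a1) form the core of the hemidesmosome, which links the membrane to keratin filaments. Laminin-332, whose alpha3 and beta3 chains come from Lama3 and Lamb3, is its ligand. The subunit beta1 (Itgb1) pairs with alpha2 (Itga2, a collagen receptor), alpha3 (Itga3, a laminin receptor) and alpha5 (Itga5, a fibronectin receptor) and works in focal adhesions. These 9 genes were followed on 18 probe sets of 22690, namely all probe sets annotated to 1 of these genes and to no other gene. Itgb1 had 6 probe sets, Itga3 had 3, Itga5 and Itga6 had 2 each, and the other genes had 1.

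The cells were primary mouse keratinocytes infected with a retrovirus that carried DNp63alpha, the main p63 isoform of basal epidermis, fused to an estrogen receptor domain. 1 array came from untreated cells and 1 from each of 12 times, every 20 min from 20 to 240 min after tamoxifen, which switches such a fusion on. All samples, the untreated one included, carried the fusion, and cells without it or without tamoxifen over the same 4 h were not analysed here. Strain, age and tamoxifen dose are not given in the sources used here. With a single array per time, each difference was set against how far arrays scatter around a fitted line or level. Nothing says that the arrays are separate cultures, so p-values cover array-to-array spread alone, which may be technical.

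The median intensity of an array was 237.4 to 251.5 units, and Spearman's rho between any pair of arrays over the probe sets was 0.983 to 0.997. The ratio of the 3' to the 5' Gapdh control probe set, a measure of RNA integrity, lay between 0.899 and 0.937. The keratin genes Krt14 and Krt5 were at the 100th and 99.9th percentile of mean level, and the keratin gene Krt15 was at the 23.6th. Some markers of other cells were bright too: Acta2 at the 95.3rd percentile, Dct at the 93.1st, Tyrp1 at the 88.4th and Pmel at the 88th. Of 8 keratinocyte markers 6 were above the filter on dim genes, and the summed intensity of the 7 on the array was 53266 to 54610 up to 60 min and 53448 to 55385 from 80 min. The 6 melanocyte markers on the array, all above the filter, summed to 6329 to 7247 up to 60 min and to 6004 to 6671 from 80 min. Of 9 fibroblast markers 1 was above the filter, Col1a1, and their sum was 1410.2 to 1442 up to 60 min and 1335 to 1453 from 80 min. Of 6 immune cell markers 2 were above it, Cd68 and Csf1r, and their sum was 1372 to 1584 up to 60 min and 1299.6 to 1534 from 80 min. Of 7 endothelial and muscle markers 2 were above it, Des and Acta2, with sums of 3532 to 3666 and 3566 to 4331. Along a straight line over 4 h on the log2 scale, described next, the tested keratinocyte and immune cell markers were mixed in direction. All 6 melanocyte markers tested had lines below 0. The tested fibroblast, endothelial and muscle markers had lines above 0. Of the 6 keratinocyte markers tested, Krt5 rose by 0.10 ± 0.028 (limma adjusted p = 0.00802) and Trp63 by 0.26 ± 0.096 (0.0425). The lines of Krt14, Cdh1, Perp and Sfn were -0.0044, -0.12, -0.063 and -0.098, none past the threshold, and the list's median was -0.034. Whether the Trp63 probe set also reads RNA of the DNp63alpha fusion was not tested. Of the 6 melanocyte markers Mitf alone passed, at -0.35 ± 0.090 (limma adjusted p = 0.00699), and Dct, Tyrp1, Pmel, Tyr and Sox10 lay between -0.042 and -0.0011. Cd68 was at -0.55 ± 0.10 (limma adjusted p = 0.000979) and Acta2 at 0.22 ± 0.068 (0.0165), while Csf1r, Des and Col1a1 were at 0.045, 0.024 and 0.10 and did not pass. The part of other cell types in the results on the 9 genes was not tested. Itga5 and Itgb1 are among those that other cell types also make. In such bulk RNA, fewer cells of a type and less RNA per cell cannot be told apart.

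The fibronectin receptor subunit Itga5 was the only member whose fall along a straight line over the course passed the threshold, and it was small. Its brighter probe set, 1423267_s_at, read 259 in untreated cells, 248 at 20 min, 254 at 40 min and 231 at 60 min. From 80 min it read between 199.9 and 229, with a median of 207. All 9 later arrays lay below all 4 earlier ones. Within those 9 arrays its line did not pass (limma adjusted p = 0.445). Along a straight line over the 13 arrays it fell 1.24-fold in 4 h (-0.32 ± 0.065 on the log2(intensity + 16) scale, SE; limma adjusted p = 0.00167). The second probe set, 1423268_at, read between 141 and 161 up to 60 min and between 128 and 151 from 80 min, with overlap. Its line over 4 h was -0.16 ± 0.063, and among all 20393 probe sets named to 1 gene it did not pass (adjusted p = 0.0789). The pair had a Pearson's r of 0.83 over the 13 arrays. Both are dim, at the 45.9th and 28.7th percentile of mean level among those probe sets.

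Itga5 was the only one of 9 genes past the threshold of 0.05 for a straight line, where 39.9% of all 7436 genes tested passed and 17.6% passed downward. The median line over 4 h was 0.0046 for the 9 genes and 0.019 for all genes tested, on the log2 scale. Itga5 also passed a test of a curved course (natural cubic spline, adjusted p = 0.0107), as did 24.9% of all genes and no other member. Its straight line stayed past the threshold when any 1 array was left out, with an adjusted p of at most 0.0109. Without the 40 and 60 min arrays together it was again the only member past the threshold (adjusted p = 0.00819), where 31.4% of all genes passed, 18% upward and 13.4% downward. With the probe sets of a gene averaged, Itga5 lay under the filter on dim genes and was not tested, and the only member past the threshold was Itga6 (adjusted p = 0.0302). Itga5 did not pass beside a step between 60 and 80 min fitted in the same model (slope of -0.047 per hour, adjusted p = 0.267). How many of all genes pass in that model was not counted. The genes whose course was most like that of Itga5 over the 13 arrays were Kdm5b, a histone demethylase gene (r = 0.96), and Hspa5, the gene of a chaperone of the endoplasmic reticulum (r = 0.95). All 3 are read on the same arrays, and 1.28% of the genes tested had an r over 0.9 with Itga5. The line over 4 h was 0.22 ± 0.089 for Itga6 (adjusted p = 0.0567), 0.22 ± 0.092 for Lamb3 (0.0645), 0.14 ± 0.081 for Col17a1 (0.176) and 0.12 ± 0.12 for Lama3 (0.448), none past the threshold. It was 0.0046 ± 0.11 for Itgb4 (0.977), -0.039 ± 0.096 for Itgb1 (0.773) and -0.085 ± 0.060 for Itga3 (0.276). For Itga2 it was -0.33 ± 0.16 (adjusted p = 0.107), as large a fall as that of Itga5 but with a wider SE. The call of Itga6 was gained without the untreated array (0.0447), the 120 min array (0.0454) or the 200 min array (0.0426), and that of Lamb3 without the 100 min array (0.0422).

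**Figure D1:**
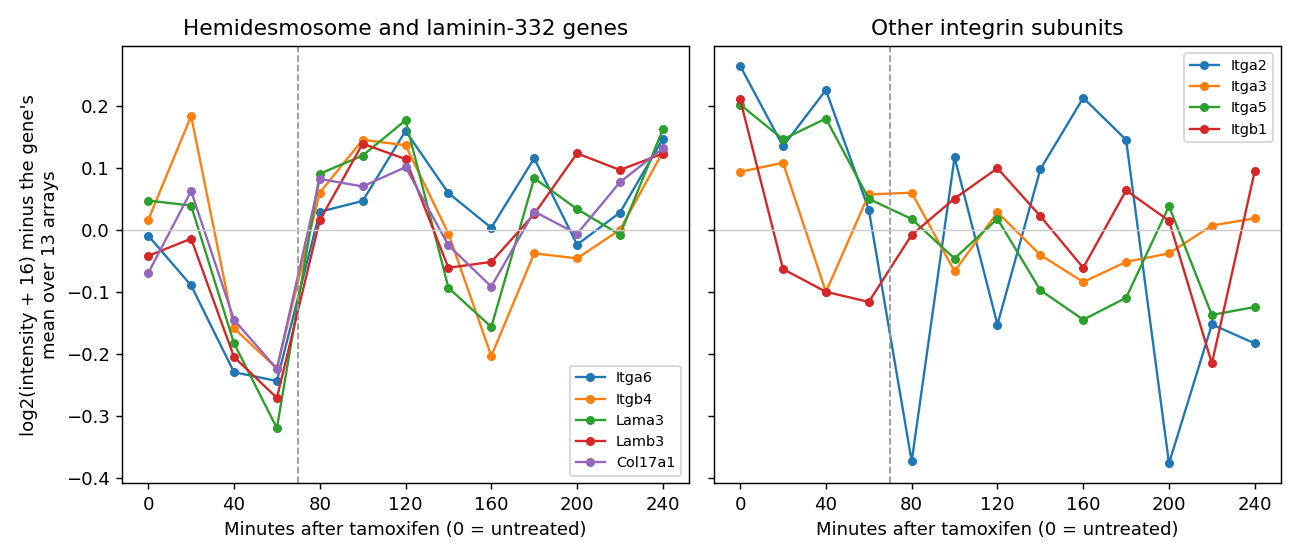
Level of each gene on its brightest probe set over time, as log2(intensity + 16) minus the gene's mean over the 13 arrays, on a linear axis of minutes after tamoxifen with untreated cells at 0. The dashed line lies between 60 and 80 min. The 5 hemidesmosome and laminin-332 genes all have their lowest array at 60 min. All Itga5 arrays from 80 min lie below its earlier ones, and Itga2 scatters.

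The genes of the hemidesmosome and its ligand had low arrays at 40 and 60 min and higher ones again at 80 min. Col17a1 (1418799_a_at) read 4117 in untreated cells, 4514 at 20 min, 3907 at 40 min, 3698 at 60 min and 4576 at 80 min. From 80 min it read between 4055 and 4735, with a median of 4537. Itga6 (1422445_at) read 2259, 2136, 1937 and 1918 in the 4 arrays from untreated to 60 min. It was at 2321 at 80 min and between 2237 and 2542 from then on, with a median of 2349. For both genes the 40 and 60 min arrays were the lowest of the course, and the untreated and 20 min arrays lay in or near the later range.

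The laminin chains followed the same course. Lama3 (1427512_a_at) read 1506, 1498, 1282 and 1164 from untreated to 60 min, then 1552 at 80 min, and between 1306 and 1649 from 80 min, with a median of 1544. Lamb3 (1417812_a_at) read 1354, 1380.1, 1207 and 1153, then 1409 at 80 min, and between 1335 and 1536 from 80 min, with a median of 1491. Lama3 was 1.33-fold as high at 80 min as at 60 min, the largest such ratio among the 9 genes, and Lamb3 was 1.22-fold as high. Itgb4 (1427387_a_at) read 3092, 3475, 2738 and 2617 from untreated to 60 min and 3188 at 80 min. It was lower again at 160 min, at 2654, and its later values ran up to 3383 with a median of 3058. For Itgb4 the 20 min array was the highest of the 13 and the earlier and later arrays overlapped.

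In 5 of the 9 genes the 60 min array was the lowest of 13, as it was in 12.5% of all genes tested. In 4 of the 9, Itga6, Lama3, Lamb3 and Col17a1, the 40 and 60 min arrays were the lowest pair, as they were in 4.81% of all genes; in 4.76% they were the highest pair. This pattern was picked out after the values were seen and has no test. Among these 5 genes Pearson's r between pairs lay between 0.59 (Itga6 with Itgb4) and 0.91 (Lama3 with Col17a1) over the 13 arrays, with a median of 0.84. Of all pairs of the 7436 genes, 2.02% had an r at or above that median, and the median of all pairs was 0.024. Between these 5 and the other 4 members the median r was -0.024, with a range from -0.60 to 0.59. Within the 9 arrays from 80 min the median among the 5 was 0.68, with a lowest r of 0.23, and 7.62% of all pairs reached that median. In these arrays the median r of the 5 with the other 4 was 0.31, with a highest r of 0.74. Without the 40 and 60 min arrays the median among the 5 was 0.59, which 12.5% of all pairs reached. All genes of an array share its RNA sample, labelling and scaling, so these correlations are descriptions.

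**Figure D2:**
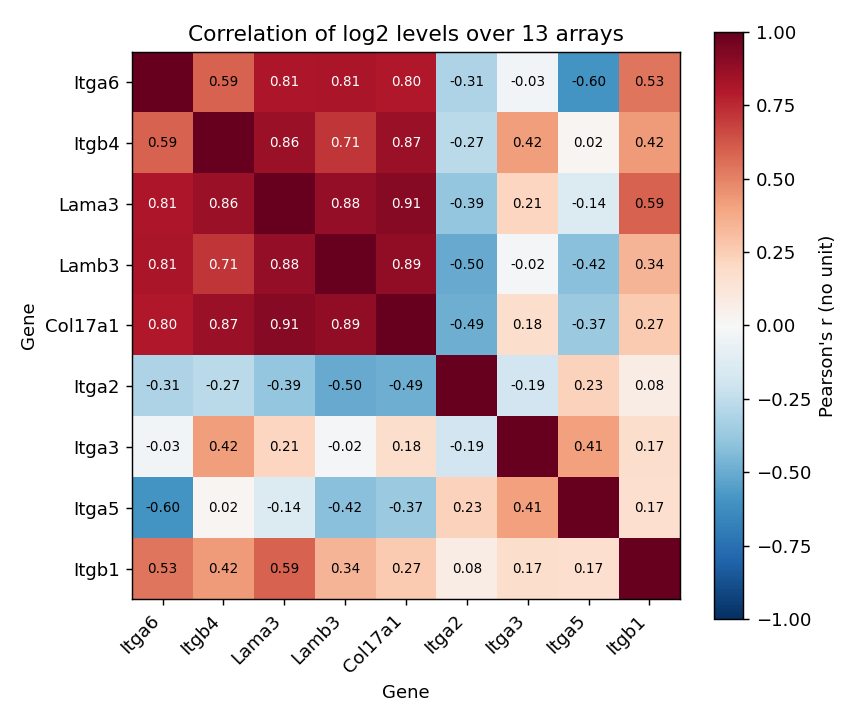
Pearson's r between the log2 levels of each pair of the 9 genes over the 13 arrays, with red above 0 and blue below 0. The block of Itga6, Itgb4, Lama3, Lamb3 and Col17a1 runs from 0.59 to 0.91, while its pairs with Itga2, Itga3, Itga5 and Itgb1 run from -0.60 to 0.59.

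The stretches before the transcription start of Lamb3 and Col17a1, whose levels correlated over the 13 arrays (r = 0.89), and of Itga5, which fell, are shown for comparison. RefSeq promoter sequences of build GRCm38.p6 matched 6 of the 9 genes, all but Itga6, Itgb4 and Lama3, and for Lamb3 the upstream of its 2 starts is used. Each runs 5′ to 3′ in the direction of transcription over the 250 bases before the start, with matches to a searched motif in capitals. They lie at chr1:193301744-193301993 on the plus strand, chr19:47692043-47692292 on the minus strand and chr15:103366792-103367041 on the minus strand.
Lamb3: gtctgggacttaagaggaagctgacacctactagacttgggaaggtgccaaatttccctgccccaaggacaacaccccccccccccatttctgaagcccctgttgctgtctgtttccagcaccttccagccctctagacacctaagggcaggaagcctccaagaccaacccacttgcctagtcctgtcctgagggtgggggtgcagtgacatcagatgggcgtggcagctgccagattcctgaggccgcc
Col17a1: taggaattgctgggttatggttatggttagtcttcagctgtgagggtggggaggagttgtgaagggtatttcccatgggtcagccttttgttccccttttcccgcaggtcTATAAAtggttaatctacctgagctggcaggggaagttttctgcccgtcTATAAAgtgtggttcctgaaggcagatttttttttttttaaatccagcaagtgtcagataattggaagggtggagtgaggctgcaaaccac
Itga5: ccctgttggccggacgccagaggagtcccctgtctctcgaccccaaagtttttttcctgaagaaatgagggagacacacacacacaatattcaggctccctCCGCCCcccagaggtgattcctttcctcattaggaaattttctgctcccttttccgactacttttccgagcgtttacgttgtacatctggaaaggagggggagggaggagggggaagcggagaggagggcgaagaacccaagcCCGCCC
Both strands were searched for the AP-1 motif TGANTCA, the TATA box TATAAA, the Sp1 box GGGCGG and the EGR motif GCGNGGGCG. A single p53-family half-site, RRRCWWGYYY (R is A or G, W is A or T, Y is C or T), and the CArG box were also searched. Of these, the Sp1 and EGR motifs can overlap. Lamb3 had no match in this window. Col17a1 had TATAAA at 140 and 91 bases before the start, and 12.4% of the 32851 RefSeq promoter windows of the same length hold that motif. Itga5 had the Sp1 box at 149 and 6 bases before the start, and 32.7% of windows hold it. No AP-1, EGR, p53-family half-site or CArG match was in any of the 3 windows. Of all windows, 6.75%, 4.7%, 7.13% and 1.47% hold one. A match is a match of letters, and a window without one says nothing about the factor.

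When the 9 arrays from 80 min were set against the 4 arrays up to 60 min, 4 of the 9 genes differed, 3 upward and 1 downward. Itga6 rose 1.15-fold (0.21 ± 0.047 on the log2 scale, SE; limma adjusted p = 0.00275), Lamb3 rose 1.14-fold (0.19 ± 0.054; adjusted p = 0.0104) and Col17a1 rose 1.10-fold (0.13 ± 0.048; adjusted p = 0.0351). Itga5 fell 1.16-fold (-0.21 ± 0.045; adjusted p = 0.00181). Over all genes 41.7% passed this test, 21.7% upward and 20.1% downward, so the members' share was near that of all genes. The median difference was 0.065 for the 9 genes and 0.0051 for all genes. The difference was 0.15 ± 0.074 for Lama3 (adjusted p = 0.117), 0.065 ± 0.072 for Itgb4 (0.5), -0.24 ± 0.11 for Itga2 (0.0816), -0.058 ± 0.040 for Itga3 (0.26) and 0.024 ± 0.064 for Itgb1 (0.789). This comparison was chosen with results of these arrays known.

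The 3 rises were smaller, of the same sign, and did not pass without the arrays at 40 and 60 min. Both were left out together after seeing the data. Without these 2 arrays the difference was 0.11 for Itga6 (adjusted p = 0.125), 0.086 for Lamb3 (0.308) and 0.044 for Col17a1 (0.57), and 0.0021 for Lama3 (0.988). In that fit Itga5 alone passed (-0.24, adjusted p = 0.00905), where 27.7% of all genes did, 14.8% upward and 13% downward. The rise of Col17a1 was also lost to the omission of a single array, namely the untreated one (0.0577) or that at 40 min (0.113), 60 min (0.147), 80 min (0.0508), 120 min (0.0554), 220 min (0.051) or 240 min (0.0573). Those of Itga6 and Lamb3 were not lost to any 1 array, with adjusted p of at most 0.0168 and 0.0486.

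**Figure D3:**
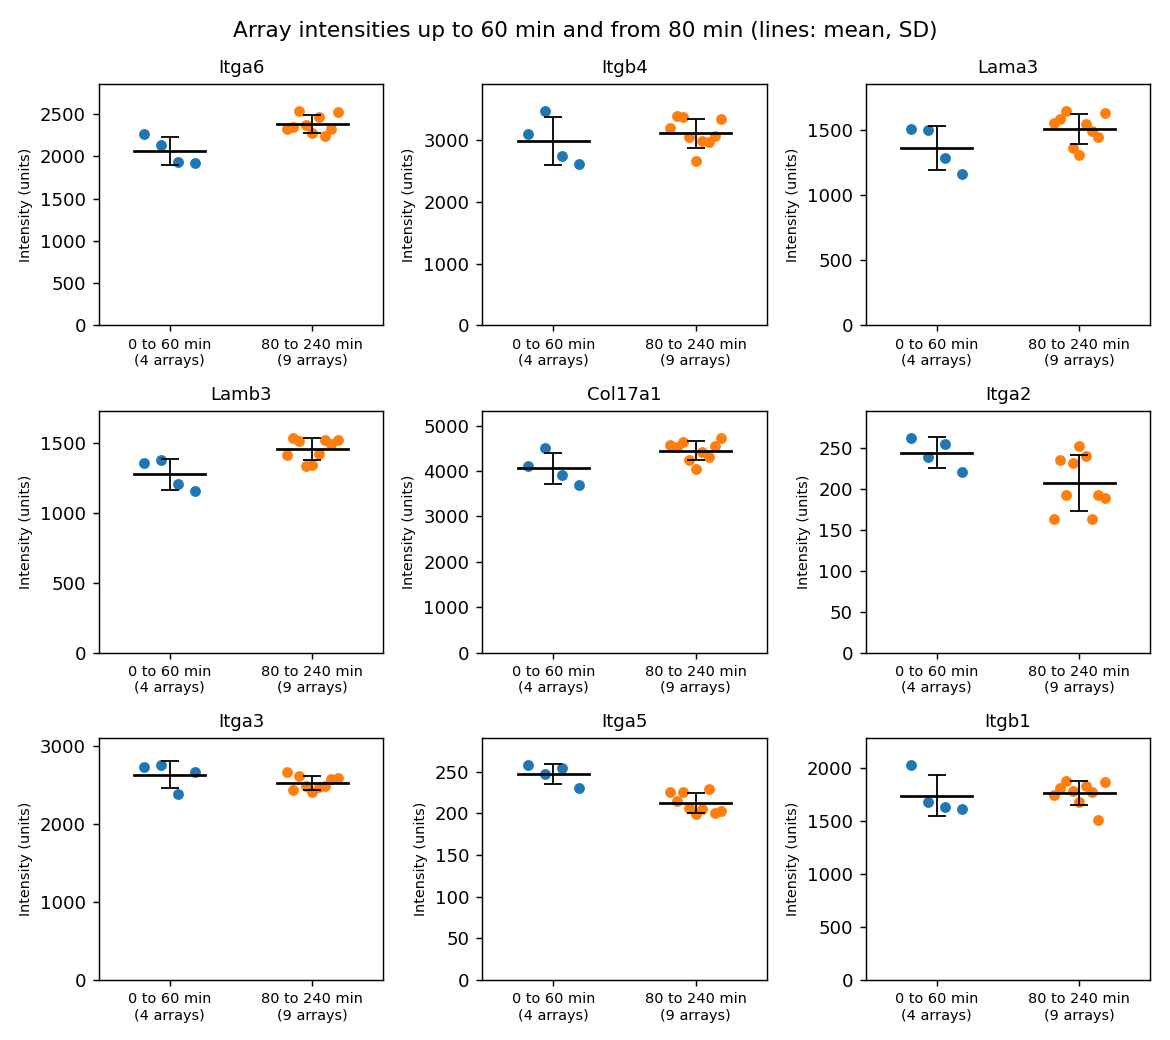
Intensity of each gene's brightest probe set in the 4 arrays up to 60 min and the 9 arrays from 80 min, on linear axes from 0. Points are arrays, and lines are the mean with its SD. Itga5 is the gene whose arrays do not overlap, and the low points of Itga6, Lama3, Lamb3 and Col17a1 up to 60 min are the 40 and 60 min arrays.

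Of the 9 genes, 8 overlapped between the earlier and the later arrays, and Itga5 did not. Of all genes tested 22.7% had no overlap: 11% of all genes tested were lower from 80 min without overlap and 11.7% higher. Inside the 9 arrays from 80 min no member had a trend (adjusted p between 0.445 and 0.962; limma), where 0.0672% of all genes passed, 0.0134% upward and 0.0538% downward. At an unadjusted p under 0.05 with limma there were 0 of the 9 members and 18.3% of all genes. Setting the 4 arrays at 20 to 80 min against the untreated one called 0 genes of 7436 with limma, and 112 at an unadjusted p under 0.05. They were 1.51% of all genes, and 1 of the 9 members, Itgb1, was among them. There is a single untreated array with no spread of its own, so its own deviation and a change after it cannot be told apart.

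At 180 to 240 min against 20 to 80 min, with 4 arrays in each window, Itga6 stood at 11.23 ± 0.078 against 11.03 ± 0.13 on the log2 scale (SD over 4 arrays; limma adjusted p = 0.0364). Lamb3 stood at 10.55 ± 0.046 against 10.34 ± 0.14 (limma adjusted p = 0.0445), and Itga5 was lower by 0.18 ± 0.057 (SE; limma adjusted p = 0.0325). The other 6 genes did not pass, and 26.3% of all genes did, 15.2% upward and 11.1% downward. None of these 3 calls held against every omission. For Itga5 the adjusted p was 0.0959, 0.0996, 0.0656, 0.091 and 0.0721 when the array at 20, 40, 180, 220 or 240 min was omitted. For Itga6 it was 0.0643, 0.11, 0.0905, 0.0513, 0.0778, 0.061 and 0.0891 for the arrays at 20, 40, 60, 140, 180, 220 and 240 min. For Lamb3 it was 0.0526, 0.126, 0.112, 0.0529, 0.0522, 0.0912, 0.0915 and 0.0878 for those at 20, 40, 60, 120, 140, 200, 220 and 240 min. Without both the 40 and 60 min arrays none passed, where 3.86% of all genes did, 1.98% upward and 1.88% downward.

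The collagen receptor subunit Itga2 was dim and scattered between arrays. Its only probe set, 1450501_at, read 262, 239, 255 and 221 from untreated to 60 min. From 80 min it lay between 163 and 253, with a median of 193. The lowest arrays, at 80 and 200 min, were both at 163, and the array at 160 min was back at 253. Its line over 4 h was -0.33 ± 0.16 on the log2 scale and did not pass (adjusted p = 0.107). The call was gained when the 80 min array was left out (adjusted p = 0.0227).

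The laminin receptor subunit Itga3 was read by 3 probe sets, all lower on average in the later arrays, of which 1 passed the threshold. The brightest, 1455158_at, read 2733, 2761, 2388 and 2664 up to 60 min and between 2414 and 2669 from 80 min, with a median of 2493. The probe set 1421997_s_at read between 1885 and 2117 up to 60 min and between 1759 and 1965 from 80 min. The probe set 1460305_at read 1265, 1304, 1269 and 1300.4 up to 60 min and between 1018 and 1241 from 80 min, with no overlap. On that probe set the difference of the later from the earlier arrays was -0.15 ± 0.045 on the log2 scale (adjusted p = 0.0199 among 20393 probe sets), and on the other 2 the difference was -0.058 and -0.085 (adjusted p = 0.332 and 0.152). Pearson's r between pairs of the 3 was 0.32 to 0.61. The straight line of each did not pass (adjusted p between 0.119 and 0.414). Among genes, the later-minus-earlier difference of Itga3 passed without the 40 min array (-0.10, limma adjusted p = 0.0362). It also passed with probe sets averaged (-0.098, 0.0211). Without both the 40 and 60 min arrays it did not (-0.12, 0.0526).

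The shared beta subunit Itgb1 had 3 bright probe sets and 3 dim ones. The brightest, 1452545_a_at, read 2035 in untreated cells, 1680.3 at 20 min, 1638 at 40 min and 1619 at 60 min, and between 1510.5 and 1883 from 80 min, with a median of 1784. The untreated array was the highest of 13 there and on 1427771_x_at, at 1054 against 785 to 999 in all others. On 1426918_at it was at 1862, with 1883 at 240 min above it. The 3 bright probe sets had r of 0.79 to 0.92 with each other. The dim ones, 1426919_at, 1426920_x_at and 1438119_at, lay at the 10.3rd, 4.53rd and 2.75th percentile of mean level, between 70.5 and 107 intensity units. None of the 6 had a straight line past the threshold (adjusted p between 0.509 and 0.923).

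**Figure D4:**
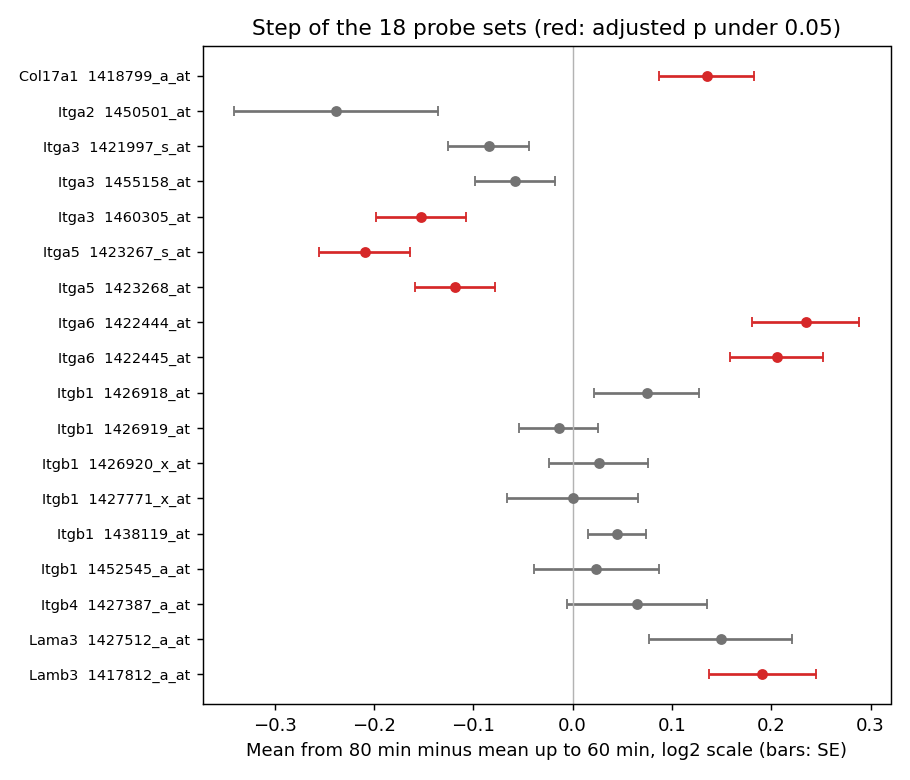
Difference between the mean of the 9 arrays from 80 min and that of the 4 arrays up to 60 min on the log2 scale, for each of the 18 probe sets, with its SE as bars and red where the adjusted p among 20393 probe sets is under 0.05. The 4 red points above 0 are Col17a1, Lamb3 and both probe sets of Itga6, and the 3 below 0 are both of Itga5 and 1 of Itga3.

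Over all 18 probe sets 7 passed this comparison, 4 higher and 3 lower from 80 min, against 25.1% of the 20393 probe sets, 12.7% upward and 12.4% downward. The count was 4 without the 40 min array and 1 without both the 40 and 60 min arrays. The share of all probe sets under these omissions was not counted. Among all genes tested, the share passing went from 41.7% to 27.7% without both arrays. For the straight line 2 of 18 passed, 1423267_s_at of Itga5 and 1422444_at of Itga6, against 22.4% of all, 12.2% upward and 10.2% downward. The latter read 1301, 1211, 1135 and 1187 up to 60 min and between 1285 and 1628 from 80 min, and rose 1.23-fold over 4 h (0.29 ± 0.093 on the log2 scale; adjusted p = 0.0318). The second Itga6 probe set, with r = 0.93 to it, had a line of 0.22 ± 0.087 and did not pass (adjusted p = 0.0797).

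Partner subunits were compared within each array to see whether they changed unequally. The difference of Itga6 from its partner Itgb4 rose by 0.055 per hour on the log2 scale without passing (permutation test, two-sided, 13 arrays, p = 0.0237; adjusted p = 0.0824 over 5 pairs). That of Itga5 from Itgb1 had a slope of -0.069 per hour (permutation p = 0.033; adjusted p = 0.0824). The slopes were -0.073 for Itga2 from Itgb1 (permutation p = 0.181; adjusted p = 0.226), -0.012 for Itga3 from Itgb1 (permutation p = 0.678; adjusted p = 0.678) and -0.026 for Lama3 from Lamb3 (permutation p = 0.0959; adjusted p = 0.16). Without the untreated array the first 2 passed (both at an adjusted p of 0.0451), and without the 220 min array that of Itga5 from Itgb1 did (0.041). The permutation takes arrays as exchangeable over time.

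Other genes of matrix adhesion were taken from lists and read along the straight line, where 22.3% of all genes rose and 17.6% fell. Of 4 further hemidesmosome genes 1 rose and 0 fell, with a median of -0.00068 on the log2 scale over 4 h against 0.019 for all genes. The tetraspanin gene Cd151, whose product binds laminin-receptor integrins, rose 1.14-fold (0.18 ± 0.061; adjusted p = 0.0247). The plakin genes Plec and Dst, which link hemidesmosomes to keratin, had lines of -0.02 ± 0.086 and 0.02 ± 0.091, and Erbin -0.57 ± 0.30 (adjusted p of 0.859, 0.876 and 0.14). Of 12 other basement membrane genes tested, 3 rose and 0 fell (median 0.015). Lamb1 rose 1.27-fold, Lamc1 1.16-fold (both laminin chains) and the matrix glycoprotein gene Sparc 1.18-fold, and the collagen IV gene Col4a2 had a line of -0.17 ± 0.071 (adjusted p = 0.0736). The calls of Cd151, Lamb1, Sparc and Lamc1 were each lost when 1 array was left out, among them the 40 min array (adjusted p of 0.0616, 0.0607, 0.0576 and 0.0957) and the 220 min array (0.0842, 0.0724, 0.07 and 0.104). Leaving out the untreated array also ended them (0.053, 0.0557, 0.126 and 0.0902). So did the 200 min array for Cd151 (0.0533) and Sparc (0.066) and the 20 min array for Lamb1 (0.0535). For Lamc1 omission of 9 of the 13 arrays did. With probe sets averaged the calls of Cd151 (limma adjusted p = 0.275) and Lamc1 (0.781, with a slope of -0.0050 per hour) were lost. Those of Lamb1 (0.00265) and Sparc (0.0081) were kept.

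Of 6 other integrin ligands tested 4 fell and 0 rose, with a median of -0.30 over 4 h. The matricellular genes Ccn2 and Ccn1 fell 2.02-fold (-1.01 ± 0.24; adjusted p = 0.00374) and 1.52-fold (-0.60 ± 0.085; adjusted p = 0.000169). The secreted protein gene Ecm1 fell 1.28-fold and the tenascin gene Tnc 1.18-fold. Those of Ecm1 and Tnc were lost when the 20 min array was left out (adjusted p of 0.109 and 0.0501), Ecm1 also without the 40 min array (0.0651) or the 180 min array (0.0503) and Tnc without the untreated array (0.0671). Of 5 other integrin subunits tested 1 rose and 0 fell (median 0.058): Itgb6, the partner of alphav in activated epithelium, rose 1.20-fold (0.26 ± 0.069; adjusted p = 0.00828). Itgb5 had a line of 0.29 ± 0.12 (adjusted p = 0.0586).

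Of 18 integrin adaptor and kinase genes tested 3 rose and 3 fell (median -0.017). Rsu1 and Parva, of the complex around integrin-linked kinase, rose 1.56-fold (0.64 ± 0.12; adjusted p = 0.000831) and 1.43-fold (0.52 ± 0.085; adjusted p = 0.000379). The focal adhesion gene Zyx fell 1.33-fold (-0.42 ± 0.11; adjusted p = 0.0082), and Lims1, of the same complex as Rsu1, had a line of -0.27 ± 0.12 (adjusted p = 0.0925). Of 10 matrix processing and shedding enzymes and inhibitors tested 1 rose and 3 fell (median -0.098). Bmp1, whose product processes laminin-332, rose 1.25-fold (0.32 ± 0.086; adjusted p = 0.00816). The metalloproteinase inhibitor genes Timp3 and Timp2 fell 1.51-fold and 1.38-fold (adjusted p of 0.000693 and 0.00588), and the sheddase gene Adam9 fell 1.25-fold (adjusted p = 0.00687). With probe sets averaged the call of Timp2 was lost and its slope went from -0.12 to -0.029 per hour (adjusted p = 0.144), and that of Adam9 was lost without the 200 and 220 min arrays (0.0633). With the step between 60 and 80 min in the same model, 0 of the 16 genes named here as rising or falling kept a line past the threshold of limma (adjusted p between 0.0822 for Ccn1 and 0.981 for Lamb1). The share of all genes passing in that model was not counted, so this loss cannot be read as particular to these genes. The slope of Ccn2 went from -0.25 to -0.029 per hour (adjusted p = 0.83), that of Zyx from -0.10 to -0.0057 (0.938) and that of Rsu1 from 0.16 to 0.043 (0.415).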

How the data were processed

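Per the labels' protocols, Trizol was used to extract total RNA, from which biotin-labelled cRNA was prepared for Affymetrix arrays. The authors deposited linear intensities for 22690 probe sets on 13 arrays. The untreated array was taken as such from its title, though its description, shared by all samples, mentions tamoxifen. How they summarised and scaled them is not stated in the labels. Scaling removes change shared by most transcripts.

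Deposited intensities were converted to log2(intensity + 16), which understates the change of dim genes. The platform table named 20393 probe sets to 1 gene, 691 to several and left 1606 unnamed, and symbols of 20364 were updated with RefSeq (GRCm38.p6). Each of 12394 genes was read on its probe set with the highest mean, and genes under the 40th percentile (log2 level 7.83) were left out, leaving 7436 genes and all 9 members. The models used limma 3.58.1 (R 4.3.3; eBayes with an intensity trend; two-sided tests). Benjamini-Hochberg adjustment ran over all genes, or over all 20393 probe sets for the 18 probe sets, at a threshold of 0.05. Partner differences used 100000 permutations. The number of arrays limits precision, and a gene scattered about its line with a median residual SD of 0.0873 on the log2 scale. The steps were tested on simulated data.

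The 9 members and the lists were chosen with earlier results of these data known, and so was the break between 60 and 80 min. All probe sets of the members are described, and so are up to 4 genes per list with the largest slope and the 2 genes most like each member past the threshold of the line. The alternatives tried were the filter, the pseudocount, the scaling, array weights, the joining of probe sets, the moderation, a Gapdh covariate, the time scale and arrays left out. The omission of the 40 and 60 min arrays and the test of the break on every probe set were added after seeing the data.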

Additional observations from a re-analysis of the deposited data

Results flagged for a closer look

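Of 36 sets of 4 arrays (the windows at 20 to 80 min and at 180 to 240 min for each of the 18 probe sets), 2 held an array set apart from the other 3 by Dixon's criterion, which chance gives in about 1 in 20 sets. For Itga3 on 1421997_s_at the array at 20 min read 2117, and the other 3 of its window lay between 1885 and 1902. For Itga5 on 1423267_s_at the array at 200 min read 229, and the other 3 of its window lay between 201 and 205. The step of Itga5 stayed past the threshold without any 1 array (adjusted p of at most 0.00996, limma).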

How the results depend on the processing

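No paired analysis was possible because there was 1 array per time and the labels carry no replicate numbers. The number of members called by the step between 60 and 80 min stayed within 1.5 times the 4 reported under 11 alternatives. It was 3 to 5 with each array left out, but 1 without the 40 and 60 min arrays. The call of Col17a1 was lost with median centring (limma adjusted p = 0.0534) and with array weights (0.088). With probe sets averaged the 4 were Itga3 (-0.098, adjusted p = 0.0211), Itga6, Lamb3 and Col17a1, since Itga5 then lay under the filter and was untested. For every probe set it was 1 without them and 4 to 7 with each array left out. For the straight line the count was 0 with a 60th percentile filter, which leaves Itga5 untested, and 0 with the step as a block. It was 3 with quantile normalization, array weights or the Gapdh covariate and 2 without the 200 and 220 min arrays, and 1 to 2 with each array left out. Itga6 was gained with quantile normalization (limma adjusted p = 0.0371), array weights (0.0289), the Gapdh covariate (0.0419) and without the 200 and 220 min arrays (0.0345). Lamb3 was gained with quantile normalization (0.0378) and the Gapdh covariate (0.0475), and Itga3, downward, with array weights (0.0243). The spline called 0 with the stricter filter, 0 with probe sets averaged (Itga5 untested), 5 with array weights, and 0 to 1 with each array left out. Late against early called 1 with median centring, 1 with the Gapdh covariate, 0 without the 200 and 220 min arrays, 0 without the 40 and 60 min arrays, and 0 to 3 with each array left out. The line on probe sets called 4 with array weights, 4 without the 200 and 220 min arrays, 1 without the 40 and 60 min arrays, and 1 to 3 with each array left out. Of the partner pairs 2 passed with probe sets averaged, 1 without the 200 and 220 min arrays, and 0 to 2 with each array left out. Beyond the filter, the cause of these shifts was not tested. The share of all genes or probe sets passing under these alternatives was not counted, except for genes without the 40 and 60 min arrays.

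Slopes per hour that changed sign, none past the threshold, were these. For Itgb4 the slope was -0.00035 with median centring, -0.018 with array weights, -0.0054 on a log2 time scale and -0.029 without the 40 and 60 min arrays. With the step as a block it was -0.051 for Itgb4, -0.015 for Itga6, -0.040 for Lama3, -0.0014 for Lamb3, -0.013 for Col17a1, -0.0019 for Lamb1, -0.012 for Itgb5, 0.0045 for Plec and -0.059 for Dst. With probe sets averaged it was 0.000078 for Itgb1, -0.0050 for Lamc1 and -0.011 for Dst. It was 0.0043 for Plec with quantile normalization, 0.013 for Itgb1 and 0.015 for Erbin without the 200 and 220 min arrays, and -0.0036 for Lama3 and -0.0072 for Dst without the 40 and 60 min arrays. In the step fit without these 2 arrays Itgb1 was at -0.067 and Itgb4 at -0.080. Late against early gave -0.11 for Itgb4 and -0.015 for Col17a1 without them, and -0.065 for Itgb4 with array weights. With single arrays left out the line ran from -0.025 to 0.016 for Itgb1, -0.016 to 0.021 for Itgb4, -0.021 to 0.0083 for Plec and -0.0100 to 0.026 for Dst, and the step from -0.0090 to 0.0998 for Itgb1. Late against early ran from -0.018 to 0.12 for Itgb4, and Itga3 from Itgb1 from -0.037 to 0.0043.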
